A study of Mus musculus with 8 samples.

Results

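The complement and coagulation genes described here are 35 mouse genes of the complement cascade, of blood coagulation and of fibrinolysis, of 38355 genes in the tables. They were chosen by gene symbol, not by their values, and all 35 were found. RNA was sequenced from 8 whole colon tumours, each from a different mouse given azoxymethane, a colon carcinogen. The 4 Trp53ΔIECAktE17K tumours were set against 4 Trp53ΔIEC tumours, so loss of Trp53 and the carcinogen are common to both groups. In the field's notation ΔIEC marks loss of a gene in intestinal epithelial cells and E17K an activating substitution of the kinase AKT. The labels give no Cre line, age or sex. Because a whole tumour also holds stroma, vessels and blood cells, fewer cells of a type and less RNA per cell cannot be told apart in any level below.

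Complement is a chain of plasma proteases that marks surfaces with C3 fragments, releases small peptides that attract leukocytes, and can end in a membrane pore built from the late components. Regulators in plasma and on cell membranes hold this chain back on the body's own cells. Coagulation starts when tissue factor meets factor VII and ends in a fibrin mesh that factor XIII crosslinks, while plasmin, made by the plasminogen activators, dissolves that mesh. The liver makes most of these proteins, but macrophages, fibroblasts, endothelium and epithelium make several of them locally.

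The edgeR quasi-likelihood test called 6 members, those with a Benjamini-Hochberg adjusted p under 0.05 over the 16539 genes tested. Serpine2, F13a1, Cd59a and Serping1 were higher in Trp53ΔIECAktE17K tumours, and C4bp and C9 were lower. The upstream regions of 5 of the 6 are shown because these genes moved in opposite directions; Serping1 is named only. RefSeq's promoter table on GRCm38.p6 held a window for 26 of the 35 members. Each sequence below covers 200 bases, from 250 to 51 bases before the RefSeq start, on the strand of the gene, with CG dinucleotides in capitals.
Serpine2: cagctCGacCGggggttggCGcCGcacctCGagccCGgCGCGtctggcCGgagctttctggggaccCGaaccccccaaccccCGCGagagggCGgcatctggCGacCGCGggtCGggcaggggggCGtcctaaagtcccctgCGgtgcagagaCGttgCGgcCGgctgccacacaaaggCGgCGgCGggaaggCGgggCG
F13a1: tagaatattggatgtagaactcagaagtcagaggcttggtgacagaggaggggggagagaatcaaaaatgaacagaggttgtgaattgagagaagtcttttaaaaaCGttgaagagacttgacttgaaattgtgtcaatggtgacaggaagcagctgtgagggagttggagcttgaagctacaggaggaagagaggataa
Cd59a: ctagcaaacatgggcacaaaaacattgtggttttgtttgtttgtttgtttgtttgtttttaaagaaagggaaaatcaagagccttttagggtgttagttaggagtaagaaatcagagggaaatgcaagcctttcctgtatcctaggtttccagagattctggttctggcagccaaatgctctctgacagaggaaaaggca
C4bp: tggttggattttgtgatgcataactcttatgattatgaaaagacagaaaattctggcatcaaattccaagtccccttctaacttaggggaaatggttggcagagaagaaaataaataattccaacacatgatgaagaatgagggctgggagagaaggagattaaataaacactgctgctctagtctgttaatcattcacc
C9: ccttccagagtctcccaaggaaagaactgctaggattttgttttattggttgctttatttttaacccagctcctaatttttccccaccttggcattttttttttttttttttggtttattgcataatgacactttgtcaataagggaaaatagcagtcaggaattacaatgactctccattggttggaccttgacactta

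These windows lie at chr1:79858716-79858915 (minus strand) for Serpine2, chr13:37050295-37050494 (minus strand) for F13a1, chr2:104095551-104095750 (plus strand) for Cd59a, chr1:130661669-130661868 (minus strand) for C4bp and chr15:6445096-6445295 (plus strand) for C9. The Serpine2 window was 75.5% G or C and held 27 CG dinucleotides, a number that 3.53% of the 32851 windows in the table reach or exceed. The F13a1 window held 1 CG dinucleotide at 43.0% G or C. Those of Cd59a, C4bp and C9 held 0, at 40.0%, 37.5% and 36.0% G or C. Over all windows the median was 4 CG dinucleotides, and 24.6% of windows held 1 or fewer. Low CG content was therefore found both upstream of genes that were higher (F13a1, Cd59a) and upstream of genes that were lower (C4bp, C9). In GENCODE M21 the Serpine2 gene begins upstream of this RefSeq start, so its window is that of 1 of its starts.

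Letters of 5 motifs were searched for on both strands of these 5 windows. TGANTCA, bound by AP-1, was in 5.57% of all windows in the table; TTCNNNGAA, bound by STAT factors, in 5.76%. TGGGAA, bound by RBPJ, was in 17.9%, GGAATG, bound by TEAD factors, in 10.7%, and GTTAAT, the HNF1 half-site, in 5.33%. The C4bp window held GTTAAT once, from -64 to -59 relative to the start. None of the other 4 motifs was found in the 5 windows, which says only that these letters are not there. Only windows of equal length were compared.

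Assigned reads ranged from 18572180 to 26268547 per tumour. Lists of cell type markers were summed in CPM, the usual library-scaled count, with library sizes adjusted by TMM. Colon epithelium markers summed to 3780 to 12599 CPM in Trp53ΔIECAktE17K tumours and 7516 to 10062 CPM in Trp53ΔIEC tumours. Of the first 3 of them, Cdx2 reached 7.77 to 50.2 and 15.2 to 76.1 CPM, Cdx1 28.5 to 186 and 128 to 183 CPM, and Vil1 118 to 517 and 521 to 704 CPM in the same order of groups. Stromal lists were higher in Trp53ΔIECAktE17K tumours without overlap: the fibroblast sum was 4509 to 7034 against 2237 to 3487 CPM, with 4 of 10 markers called higher, and the smooth muscle sum 1131 to 1828 against 308 to 498 CPM, with 7 of 8 called higher. The cardiac muscle sum was 137 to 202 against 37.5 to 116 CPM (5 of 7 tested called higher), and the stratified epithelium sum 179 to 14781 against 58.3 to 233 CPM (5 of 8 called higher). Endothelial markers summed to 233 to 443 against 142 to 261 CPM (1 of 8 called higher), neutrophil markers to 210 to 900.2 against 30.5 to 504 CPM (1 of 7 tested), and mesothelial markers to 1424 to 3466 against 2212 to 2927 CPM (1 of 4 tested). Krt19 made up most of the mesothelial sum, with 1409 to 3368 against 2183 to 2880 CPM. Wt1 of the same list had 0.882 to 7.87 against 0 to 0.0465 CPM, without overlap. Wt1 passed the filter on low counts through the Trp53ΔIECAktE17K tumours alone, so it was tested only because it was higher there. Of the 4 mesothelial markers tested, 3 had a positive and 1 a negative fold change. Krt19 and Wt1 were picked after their values were seen. How far these differences in tissue make-up enter the levels of the 35 genes was not tested.

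Among all genes tested, 4.20% were called, 3.44% as higher and 0.756% as lower. Of the members, 33 of 35 passed the filter on low counts, 4 were called higher and 2 lower. At an unadjusted p under 0.05 there were 8 higher members, against 12.8% of all genes tested, and 3 lower members, against 8.07%. In 7 of the 33 every tumour of one group lay above every tumour of the other, against 14.2% of all genes tested. At an unadjusted p under 0.05 in either direction stood 11 members, beside 20.8% of all genes tested. Log2 fold changes were positive in 16 and negative in 17 members with a median of -0.20, beside 0.01 over all genes tested. The count of called members was 2 when Trp53ΔIEC replicate 2, 3 or 4 was left out, and C9 and F13a1 were the 2 each time. The sample titles carry a letter, which is A in Trp53ΔIECAktE17K replicates 1 and 2 and B in 6 tumours; the labels do not explain it. With that letter as a term, 1 member remained called, F13a1, with an adjusted p of 0.0331.

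**Figure D1:**
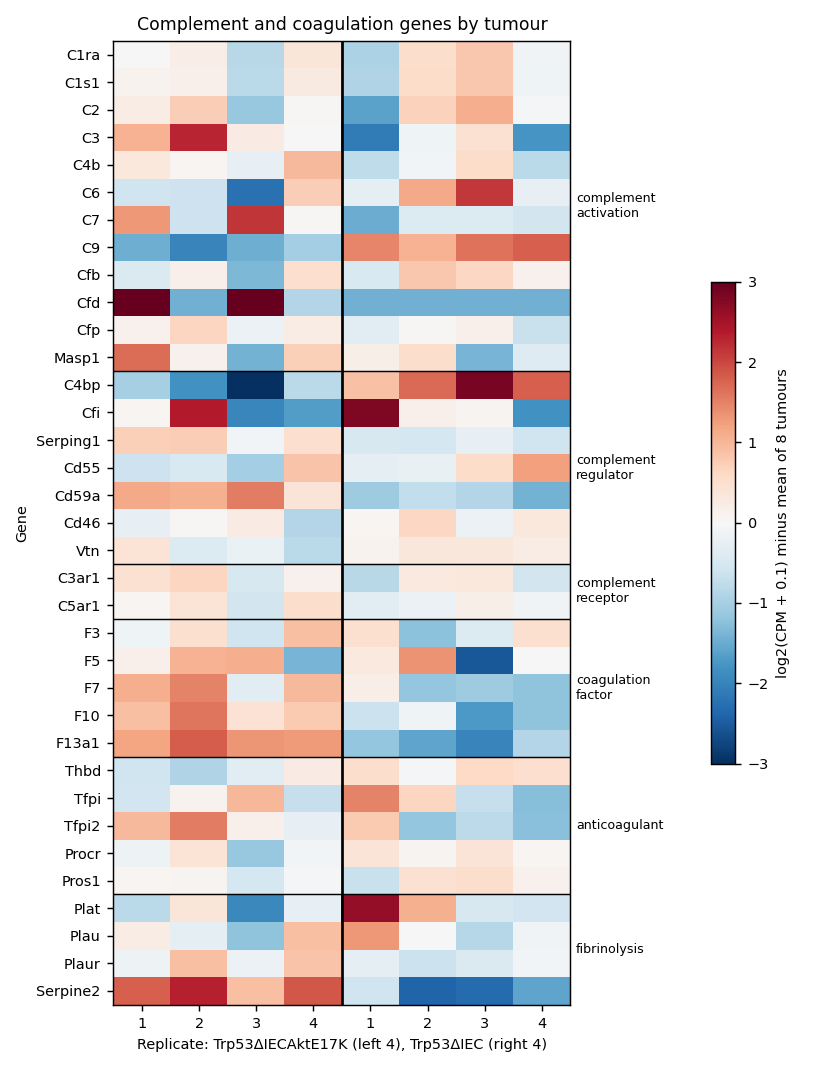
Heatmap of the 35 members (down the page, by role) in the 8 tumours, Trp53ΔIECAktE17K replicates 1 to 4 in the left 4 columns and Trp53ΔIEC replicates 1 to 4 in the right 4. Colour gives each gene's log2(CPM + 0.1) relative to its mean over the 8 tumours, so rows compare tumours and not genes; Serpine2, F13a1 and Cd59a separate the groups in one direction and C4bp and C9 in the other.

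Levels differed between tumours of a group as well as between groups. Trp53ΔIECAktE17K replicate 3 was the lowest of its group in 23 of the 33 tested members, against 33.4% of all genes tested, and replicate 2 the highest in 15, against 20.3%. Among Trp53ΔIEC tumours, replicate 1 was the lowest in 12 members (27.7% of all genes tested) and replicate 3 the highest in 15 (23.9%). Leaving out Trp53ΔIECAktE17K replicate 3 together with Trp53ΔIEC replicate 1 gave 6 called members, 5 of them among the 6 named above; Cd59a then had an adjusted p of 0.0503 and F7 was called.

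Per kilobase of exon, the order of levels began in Trp53ΔIECAktE17K tumours with Serping1 (153 CPM per kb), C3 (85.9), F3 (57.7), Plau (40.8) and Plat (35.5). In Trp53ΔIEC tumours it began with Plat (115 CPM per kb), Serping1 (79.0), F3 (47.3), Plau (46.7) and Thbd (26.7). These are means of levels and not differences. Among these 5 genes of each group, ranges of neighbours in the order overlapped, except that Serping1 lay above F3 in every Trp53ΔIEC tumour. C9 stood last of the 35 in Trp53ΔIECAktE17K tumours at 0.0174 CPM per kb, below the range of Cd46 before it, and 30th in Trp53ΔIEC tumours at 0.399 CPM per kb.

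Of the genes that start and carry the complement cascade, 10 of 12 were tested, and C9 alone was called. C9 supplies the subunits that polymerise into the membrane pore. It reached 0.0423, 0, 0.0420 and 0.0931 CPM in Trp53ΔIECAktE17K replicates 1 to 4, against 0.995, 0.714, 1.12 and 1.26 CPM in Trp53ΔIEC replicates 1 to 4. That is 4 reads in one group and 92 in the other, so C9 was scarce in both and the groups did not overlap. C9 passed the filter on low counts through the Trp53ΔIEC tumours alone, so it was tested only because it was higher there. The log2 fold change was -4.39 ± 0.56 (SE, n = 4 each), with an adjusted p of 0.00999, and C9 stayed under the threshold whichever tumour was left out (adjusted p 0.00993 to 0.0451).

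C3, the component on which the activation routes converge, had 397, 948, 228 and 194 CPM in Trp53ΔIECAktE17K tumours, against 45.4, 176, 264 and 56.6 CPM in Trp53ΔIEC tumours. The groups overlapped, since Trp53ΔIEC replicate 3 stood above Trp53ΔIECAktE17K replicates 3 and 4. Its log2 fold change of 1.70 ± 0.70 did not pass the test (adjusted p = 0.212). C6, which joins the pore before C9, had 1.65, 1.65, 0.462 and 4.33 CPM in Trp53ΔIECAktE17K tumours, against 2.10, 5.72, 11.6 and 2.14 CPM in Trp53ΔIEC tumours (log2 fold change -1.41 ± 0.77, adjusted p = 0.339). Only Trp53ΔIECAktE17K replicate 4 reached into the Trp53ΔIEC range. Cfp, which encodes properdin, the stabiliser of the alternative pathway convertase, had 29.3, 42.1, 23.8 and 31.7 CPM in Trp53ΔIECAktE17K tumours, against 21.6, 27.9, 29.8 and 16.9 CPM in Trp53ΔIEC tumours (0.40 ± 0.24, adjusted p = 0.380).

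The proteases C1ra and C1s1 of the C1 complex, with C2, C4b, Cfb and Masp1, were not called, with log2 fold changes between -0.48 (Cfb) and 0.79 (Masp1) and overlapping groups. C1ra spanned 26.4 to 60.4 CPM in Trp53ΔIECAktE17K tumours and 24.3 to 81.7 CPM in Trp53ΔIEC tumours. C1s1, its neighbour 6901 bases away on chromosome 6 and transcribed from the opposite strand, spanned 39.0 to 82.7 and 36.5 to 120.4 CPM. Their ratio per kilobase stayed between 0.672 and 0.767 in all 8 tumours, so the pair moved together from tumour to tumour. C2, the protease part of the classical convertase, spanned 5.17 to 18.9 CPM in Trp53ΔIECAktE17K tumours and 3.67 to 24.3 CPM in Trp53ΔIEC tumours. Cfb, its counterpart in the alternative pathway, lies 85 bases away on chromosome 17 and spanned 4.49 to 16.5 and 8.34 to 20.3 CPM. Other annotated exons overlap 46.9% of the C2 exon bases and 79.5% of those of Cfb, mainly the model Gm20547, so counts of both are uncertain. C4b, which forms part of the classical convertase, spanned 45.0 to 104 CPM in Trp53ΔIECAktE17K tumours and 30.2 to 78.7 CPM in Trp53ΔIEC tumours; its near copy C4a makes the split of reads uncertain. Masp1, a protease of the lectin pathway, spanned 0.546 to 5.38 CPM in Trp53ΔIECAktE17K tumours and 0.559 to 2.37 CPM in Trp53ΔIEC tumours.

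Both members that the filter left out had few or no reads in most tumours. Cfd, which encodes factor D, the protease that cuts factor B and is known as adipsin from fat cells, had 4.91, 0, 3.95 and 0.0466 CPM in Trp53ΔIECAktE17K tumours and 0 reads in all 4 Trp53ΔIEC tumours. Nearly all of its 211 reads came from Trp53ΔIECAktE17K replicates 1 and 3. Against a floor of 3 counts over the Trp53ΔIEC group, the summed level was 69.5-fold higher. That figure takes the 211 reads as exact and rests on Trp53ΔIECAktE17K replicates 1 and 3. Replicates 2 and 4 of that group had 0 and 1 reads, so it does not describe the group as a whole. A list of 8 adipocyte markers, added after these values were seen, summed to 53.3 to 114 CPM in Trp53ΔIECAktE17K tumours and 20.9 to 27.3 CPM in Trp53ΔIEC tumours, with 1 of its 4 tested genes called higher. Much of the sum came from Fabp4 (20.2 to 73.9 and 4.70 to 8.11 CPM) and Lipe (17.7 to 29.2 and 13.2 to 16.0 CPM), picked after their values were seen. In Trp53ΔIECAktE17K replicates 1 to 4 the sums were 114, 53.3, 55.9 and 61.5 CPM, so replicate 3 did not stand out as it did for Cfd. Adipoq, which defines fat cells, had 0.635, 0.0823, 0.504 and 0 CPM in Trp53ΔIECAktE17K tumours, against 0.0765, 0, 0 and 0 CPM in Trp53ΔIEC tumours. Plin1 had 0.212, 0.0412, 0.168 and 0.0931 CPM in Trp53ΔIECAktE17K tumours and 0 in all 4 Trp53ΔIEC tumours, and Cidec had 1.52, 1.60, 1.26 and 5.77 CPM, against 1.07, 0.865, 2.46 and 0.745 CPM. Adipoq and Plin1 were highest in Trp53ΔIECAktE17K replicates 1 and 3, as Cfd was, whereas Cidec was lowest of its group in replicate 3 and highest in replicate 4. The part of fat cells in the Cfd level was not tested. C7, which anchors the growing pore in the membrane, had 0.593, 0.0823, 1.13 and 0.186 CPM in Trp53ΔIECAktE17K tumours, against 0, 0.113, 0.112 and 0.0931 CPM in Trp53ΔIEC tumours. That is 47 reads against 7, and the groups overlapped.

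**Figure D2:**
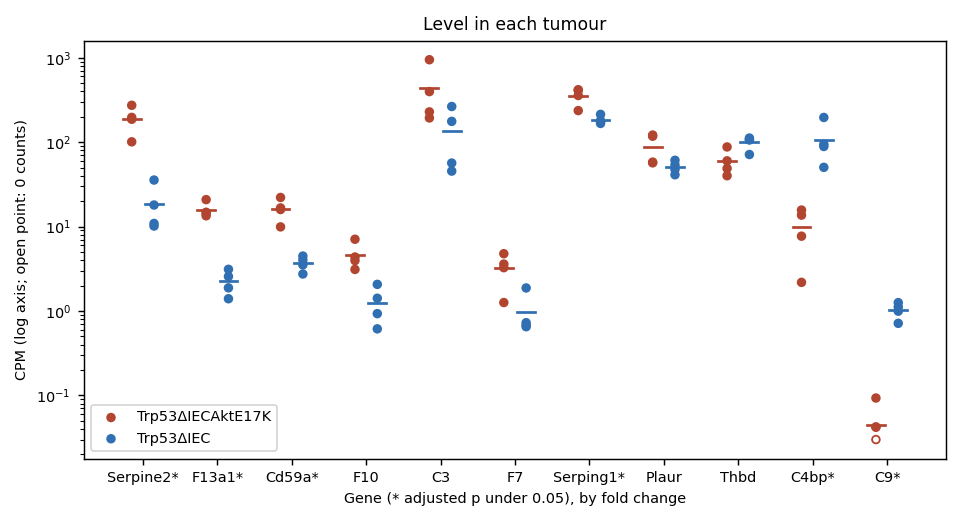
Level of the 11 members with an unadjusted p under 0.05, in CPM on a log axis, with 1 point per tumour and a short line at the group mean, Trp53ΔIECAktE17K left of Trp53ΔIEC for each gene. Open points mark 0 counts and an asterisk an adjusted p under 0.05; in all 6 genes with an asterisk, no tumour of one group enters the range of the other.

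Complement levels were set beside the macrophage markers tumour by tumour. The 9 macrophage markers summed to 435 to 1269 CPM in Trp53ΔIECAktE17K tumours and 506 to 1164 CPM in Trp53ΔIEC tumours, and 0 of the 8 tested were called, with 1 at an unadjusted p under 0.05. Csf1r spanned 30.0 to 81.4 and 56.1 to 135 CPM, Adgre1 14.5 to 29.1 and 19.1 to 44.3 CPM, and Cd68 41.3 to 147 and 22.0 to 37.5 CPM. Much of the sum came from Lyz2 (221 to 620 and 226 to 536 CPM) and Cd14 (91.8 to 302 and 88.4 to 314 CPM). Lyz2 and Cd14 were picked after their values were seen. The sums were lowest in Trp53ΔIECAktE17K replicate 3 (435 CPM) and in Trp53ΔIEC replicates 1 (506 CPM) and 4 (558 CPM). The same 3 tumours held the 3 lowest levels of 6 of the 19 complement members tested (C1ra, C1s1, C2, C3ar1, C4b and Cfp), of 7 of 21 other complement genes, C1qb among them, and of 3.91% of all genes tested. The other 13 complement members, C3, C5ar1 and C6 among them, did not have this order, which was looked for after the values were seen. The part of macrophage content in these levels was not tested.

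**Figure D3:**
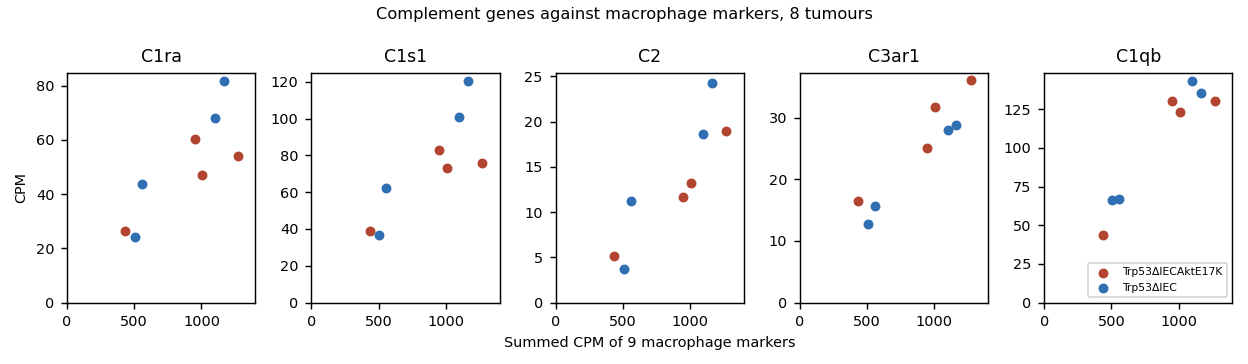
Levels of 5 complement genes, picked because they have this order, in CPM (vertical axes, from 0) against the summed CPM of 9 macrophage markers (horizontal axes), 1 point per tumour. In each panel the 3 tumours at 435, 506 and 558 CPM of summed markers carry the 3 lowest levels of the gene, and both groups appear at low and at high sums.

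Among the 7 regulators of complement, 2 were called higher and 1 lower in Trp53ΔIECAktE17K tumours, beside 3.44% and 0.756% of all genes tested. Of the 7, 2 had a positive and 5 a negative fold change. Cd59a, a membrane protein that stops C9 from polymerising, had 16.6, 15.9, 22.1 and 9.92 CPM in Trp53ΔIECAktE17K tumours, against 3.52, 4.47, 4.02 and 2.75 CPM in Trp53ΔIEC tumours. Every Trp53ΔIECAktE17K tumour was above every Trp53ΔIEC tumour. The log2 fold change was 2.13 ± 0.30 (SE, n = 4 each), a 4.37-fold difference with an adjusted p of 0.0142. Leaving out Trp53ΔIEC replicate 2, 3 or 4 gave an adjusted p between 0.0515 and 0.0631. Its paralogue Cd59b, picked after its values were seen, lies 4613 bases away on chromosome 2 and was scarcer, with 0.745 to 1.40 CPM in Trp53ΔIECAktE17K tumours and 0.168 to 0.574 CPM in Trp53ΔIEC tumours (1.47 ± 0.44, adjusted p = 0.106). The 2 genes are similar enough for their reads to be split with some error.

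Serping1, which encodes the C1 inhibitor, a serpin that inactivates C1r and C1s and proteases of the contact system, had 412, 418, 237 and 357 CPM in Trp53ΔIECAktE17K tumours, against 180.4, 174, 214 and 167 CPM in Trp53ΔIEC tumours. The groups did not overlap, although replicate 3 of either group came close to the other, at 237 CPM against 214 CPM. Its log2 fold change was 0.95 ± 0.19, 1.94-fold, with an adjusted p of 0.0378. The call was kept without Trp53ΔIECAktE17K replicate 3 (adjusted p = 0.0148) and lost without any other single tumour (0.0538 to 0.110). The first 3 fibroblast markers were also higher in the same tumours: Col1a1 spanned 1452 to 2392 CPM in Trp53ΔIECAktE17K tumours and 481 to 1052 CPM in Trp53ΔIEC tumours, Col1a2 926 to 1670.3 and 461 to 583 CPM, and Col3a1 1227 to 2155 and 843 to 1204 CPM. Of the 10 fibroblast markers, 9 had a positive and 1 a negative fold change. Pdgfra, picked after its values were seen, spanned 45.9 to 123 CPM in Trp53ΔIECAktE17K tumours and 77.0 to 193 CPM in Trp53ΔIEC tumours. The part of fibroblasts in the Serping1 level was not tested.

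C4bp, the C4b-binding protein that helps factor I to cleave C4b, was the more abundant of the genes that fell. It had 13.7, 7.70, 2.18 and 15.7 CPM in Trp53ΔIECAktE17K tumours, against 50.3, 88.9, 196 and 94.5 CPM in Trp53ΔIEC tumours. The highest Trp53ΔIECAktE17K tumour was below the lowest Trp53ΔIEC tumour. The log2 fold change was -3.45 ± 0.65, an 11-fold lower level, with an adjusted p of 0.0284. Leaving out Trp53ΔIECAktE17K replicate 1 or 2 or Trp53ΔIEC replicate 2, 3 or 4 raised the adjusted p to between 0.0736 and 0.0801. Per kilobase, C4bp stood 29th of the 35 members in Trp53ΔIECAktE17K tumours (1.46 CPM per kb) and 13th in Trp53ΔIEC tumours (16.0 CPM per kb). Cd55, which lies 172028 bases away on chromosome 1, was not called (41.7 to 154 CPM in Trp53ΔIECAktE17K tumours, 68.7 to 197 CPM in Trp53ΔIEC tumours, log2 fold change -0.57 ± 0.49, adjusted p = 0.550).

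Vtn, which encodes vitronectin, a plasma and matrix protein that binds the late complex, had 2.88, 1.56, 1.85 and 1.16 CPM in Trp53ΔIECAktE17K tumours, against 2.3, 2.71, 2.74 and 2.51 CPM in Trp53ΔIEC tumours (-0.46 ± 0.33, adjusted p = 0.464). Trp53ΔIECAktE17K replicate 1 was the highest of all 8. Cfi, which encodes factor I, the protease that inactivates C3b and C4b, spanned 1.39 to 30.0 CPM in Trp53ΔIECAktE17K tumours and 1.54 to 40.1 CPM in Trp53ΔIEC tumours, each range set by a single high tumour. Cd46, a cofactor for factor I that in mice is expressed mainly in testis, was scarce in both groups at 0.373 to 0.924 and 0.670 to 1.24 CPM.

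The receptors of the released peptides did not pass the test. C3ar1, the receptor for C3a, had 31.7, 36.0, 16.5 and 25.1 CPM in Trp53ΔIECAktE17K tumours, against 12.8, 28.0, 28.8 and 15.7 CPM in Trp53ΔIEC tumours (0.36 ± 0.34, adjusted p = 0.591). C5ar1, the receptor for C5a, had 24.1, 30.6, 15.7 and 33 CPM in Trp53ΔIECAktE17K tumours, against 18.4, 20.2, 25.9 and 21.4 CPM in Trp53ΔIEC tumours (0.27 ± 0.25, adjusted p = 0.576). In both genes Trp53ΔIECAktE17K replicate 3 was the lowest of its group and the groups overlapped.

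All 5 coagulation factors had a positive fold change (median log2 fold change 1.70, beside 0.01 over all genes tested), and 1 was called. Of all genes tested, 8448 of 16539 had a positive one. The 23 tested coagulation genes that are no members had 8 positive and 15 negative fold changes and a median of -0.20. Unlike the 5 factors, that list also holds anticoagulants and receptors, so the signs are not compared like for like. By edgeR 0 of the 23 were called, and 7 had an unadjusted p under 0.05, beside 20.8% of all genes tested. DESeq2 called 4 of the 23, Fga, Fgg, Serpinc1 and A2m, and limma-voom called Serpinc1. F13a1, the catalytic A subunit of factor XIII, had 13.4, 20.9, 14.8 and 14.3 CPM in Trp53ΔIECAktE17K tumours, against 2.56, 1.88, 1.40 and 3.12 CPM in Trp53ΔIEC tumours. The 4 Trp53ΔIECAktE17K tumours lay close together, the highest 1.55 times the lowest. The log2 fold change was 2.82 ± 0.32 (SE, n = 4 each), 7.05-fold, with an adjusted p of 0.00755, and it passed whichever tumour was left out (0.00975 to 0.0373). F13a1 is known from macrophages and platelets. Platelet markers summed to 14.7 to 56.6 CPM in Trp53ΔIECAktE17K tumours and 25.0 to 33.1 CPM in Trp53ΔIEC tumours, and 0 of the 5 tested were called, with 1 lower at an unadjusted p under 0.05. Of the first 3, Pf4 spanned 5.04 to 12.8 and 4.59 to 9.22 CPM, Ppbp 2.35 to 40.1 and 1.84 to 11.6 CPM, and Itga2b 3.32 to 8.89 and 3.07 to 12.4 CPM. The summed macrophage markers overlapped between the groups as well, as given above. Cd68 of that list did not overlap, with 41.3 to 147 against 22.0 to 37.5 CPM. Of the 8 macrophage markers tested, 2 had a positive and 6 a negative fold change. The part of macrophages and platelets in the F13a1 level was not tested.

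F10 and F7, which encode the proteases that tissue factor brings together, lie 1498 bases apart on chromosome 8 on the same strand. F10 had 4.36, 7.08, 3.11 and 3.96 CPM in Trp53ΔIECAktE17K tumours, against 1.42, 2.07, 0.615 and 0.931 CPM in Trp53ΔIEC tumours. The groups did not overlap, but the log2 fold change of 1.87 ± 0.45 narrowly missed the threshold (adjusted p = 0.0576). F7 had 3.60, 4.77, 1.26 and 3.26 CPM in Trp53ΔIECAktE17K tumours, against 1.88, 0.677, 0.726 and 0.651 CPM in Trp53ΔIEC tumours (1.70 ± 0.52, adjusted p = 0.114). Trp53ΔIEC replicate 1 stood above Trp53ΔIECAktE17K replicate 3. DESeq2 called both, with adjusted p of 0.000906 for F10 and 0.0218 for F7. Proz, the next gene on that strand 4237 bases from F10 and picked after its values were seen, had 0.336 to 1.49 CPM in Trp53ΔIECAktE17K tumours and 0.512 to 1.56 CPM in Trp53ΔIEC tumours, with a log2 fold change of -0.20 ± 0.54 (adjusted p = 0.868).

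F3, which encodes tissue factor, the membrane protein that starts coagulation, was the most abundant of these factors per kilobase. It had 110.4, 168, 78.7 and 226 CPM in Trp53ΔIECAktE17K tumours, against 169, 50.8, 90.0 and 169 CPM in Trp53ΔIEC tumours (0.29 ± 0.44, adjusted p = 0.758). F5, the cofactor of factor X, spanned 3.35 to 19.2 CPM in Trp53ΔIECAktE17K tumours and 1.45 to 22.9 CPM in Trp53ΔIEC tumours (0.20 ± 0.77, adjusted p = 0.916). Both genes varied as widely within a group as between the groups, and the sign turned when single tumours were left out (lowest log2 fold change -0.017 for F3, without Trp53ΔIECAktE17K replicate 4, and -0.20 for F5, without Trp53ΔIEC replicate 3).

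None of the 5 anticoagulant genes was called by edgeR, DESeq2 or limma-voom, and 1 had an unadjusted p under 0.05. That gene, Thbd, encodes thrombomodulin, which turns thrombin towards activating protein C. It had 48.8, 40.0, 60.1 and 87.8 CPM in Trp53ΔIECAktE17K tumours, against 107, 71.4, 112 and 106 CPM in Trp53ΔIEC tumours (-0.75 ± 0.26, adjusted p = 0.147). Trp53ΔIECAktE17K replicate 4 and Trp53ΔIEC replicate 2 were the tumours that overlapped, and without Trp53ΔIECAktE17K replicate 4 the adjusted p was 0.0355. Procr, the endothelial receptor of protein C, had 29.6, 43.9, 14.8 and 31.2 CPM in Trp53ΔIECAktE17K tumours, against 43.1, 34.9, 43.2 and 34.2 CPM in Trp53ΔIEC tumours (-0.38 ± 0.29, adjusted p = 0.505). Pros1, which encodes protein S, the cofactor of activated protein C, had 67.9, 69.6, 45.3 and 63.1 CPM in Trp53ΔIECAktE17K tumours, against 41.3, 90.8, 95.2 and 72.2 CPM in Trp53ΔIEC tumours (-0.28 ± 0.26, adjusted p = 0.587). For both genes, ranges overlapped.

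The inhibitors of the tissue factor pathway differed in sign. Tfpi2 had 9.78, 14.4, 5.42 and 4.10 CPM in Trp53ΔIECAktE17K tumours, against 8.50, 2.14, 2.79 and 2.0 CPM in Trp53ΔIEC tumours (1.12 ± 0.60, adjusted p = 0.326). Trp53ΔIEC replicate 1 was the only tumour of its group inside the Trp53ΔIECAktE17K range. Tfpi spanned 24.0 to 77.6 CPM in Trp53ΔIECAktE17K tumours and 15.9 to 109 CPM in Trp53ΔIEC tumours (-0.31 ± 0.63, adjusted p = 0.820). Neither difference passed the test.

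Of the 4 fibrinolysis genes, Serpine2 was called. Serpine2 encodes protease nexin-1, an inhibitor of thrombin and of both plasminogen activators. It had 187, 274, 101 and 197 CPM in Trp53ΔIECAktE17K tumours, against 35.6, 10.2, 10.9 and 18 CPM in Trp53ΔIEC tumours. The lowest Trp53ΔIECAktE17K tumour was well above the highest Trp53ΔIEC tumour. The log2 fold change of 3.34 ± 0.49 (SE, n = 4 each), 10.1-fold, had the largest size among members called higher, with an adjusted p of 0.0157. Leaving out Trp53ΔIEC replicate 2, 3 or 4 gave an adjusted p between 0.0569 and 0.0675, and without Trp53ΔIECAktE17K replicate 3 and Trp53ΔIEC replicate 1 together the log2 fold change was 4.07. Smooth muscle markers separated the groups too: Cnn1 spanned 72.8 to 146 CPM in Trp53ΔIECAktE17K tumours and 10.3 to 16.8 CPM in Trp53ΔIEC tumours, Des 125 to 298 and 13 to 22.6 CPM, and Myh11 67 to 180.2 and 27.8 to 54.2 CPM. Their part in the Serpine2 level was not tested.

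Plat, the tissue plasminogen activator, had 171, 383, 78.2 and 254 CPM in Trp53ΔIECAktE17K tumours, against 1844, 622, 213 and 199.1 CPM in Trp53ΔIEC tumours. Trp53ΔIEC replicate 1 alone carried more than the other 3 tumours of its group together, and the groups overlapped. Its log2 fold change of -1.70 ± 0.78 did not pass the test (adjusted p = 0.263). The ratio of Plat to Serpine2 per kilobase was 1.03 to 1.86 in Trp53ΔIECAktE17K tumours and 14.7 to 81.3 in Trp53ΔIEC tumours, without overlap. This pair was chosen after the values were seen, and the ratio carries no test of its own.

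Plau, the urokinase-type activator, had 105, 73.7, 38.8 and 168 CPM in Trp53ΔIECAktE17K tumours, against 219.5, 90.3, 49.5 and 83.2 CPM in Trp53ΔIEC tumours (-0.20 ± 0.54, adjusted p = 0.872). Plaur, its receptor, had 58.0, 121, 56.9 and 118 CPM in Trp53ΔIECAktE17K tumours, against 53.8, 41.1, 47.5 and 61.0 CPM in Trp53ΔIEC tumours (0.80 ± 0.29, adjusted p = 0.162). For Plaur, Trp53ΔIECAktE17K replicates 2 and 4 were high and replicates 1 and 3 lay within the Trp53ΔIEC range.

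**Figure D4:**
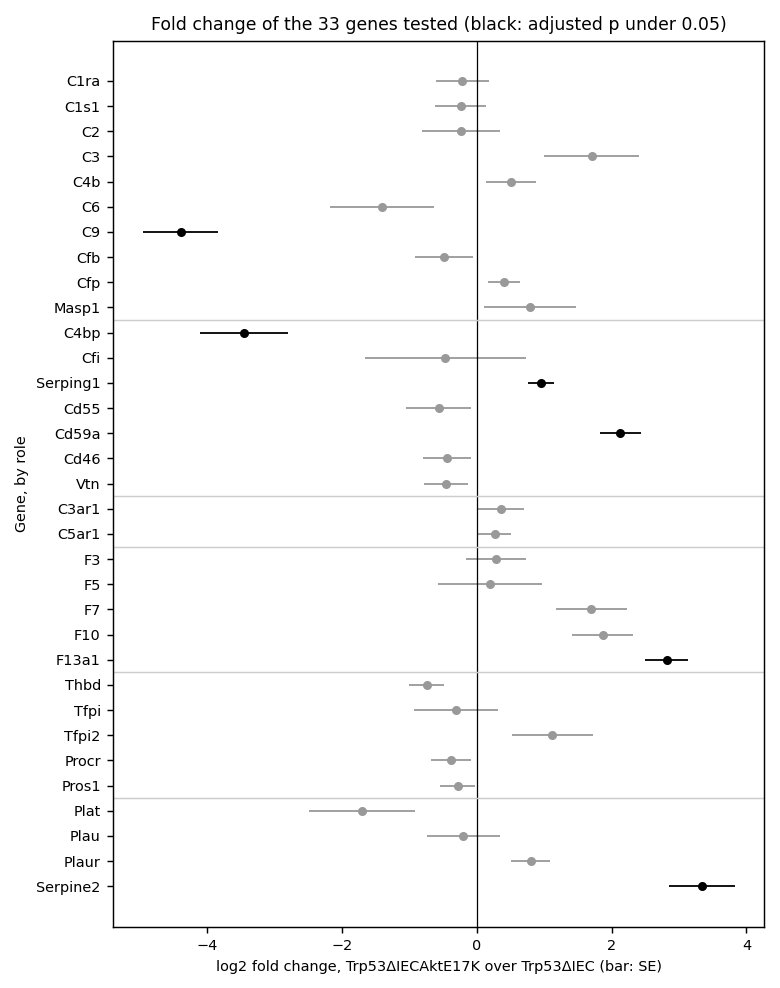
Log2 fold change, Trp53ΔIECAktE17K over Trp53ΔIEC, of the 33 members tested (horizontal axis, bars: SE), grouped by role down the page, with called genes in black. The called genes run from -4.39 (C9) to 3.34 (Serpine2).

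A further list of complement, coagulation and fibrinolysis genes that are no members held 72 genes found in the tables, of which 54 were tested, 2 were called higher and 2 lower (4.20% of all genes tested were called). At an unadjusted p under 0.05 there were 10 higher, against 12.8% of all genes tested, and 6 lower, against 8.07%. The median log2 fold change of the 54 was -0.10. The count of 4 was 0 without Trp53ΔIEC replicate 2, 3 or 4, 1 without Trp53ΔIECAktE17K replicate 1, and 2 without Trp53ΔIECAktE17K replicate 2 or Trp53ΔIEC replicate 1. Plg, which encodes plasminogen, the precursor of plasmin, had 0.169, 0, 0.0840 and 0.0466 CPM in Trp53ΔIECAktE17K tumours, against 1.49, 1.13, 1.40 and 1.12 CPM in Trp53ΔIEC tumours (-4.00 ± 0.60, adjusted p = 0.0169). Hc, which encodes C5, had 0, 0.123, 0.0420 and 0.140 CPM in Trp53ΔIECAktE17K tumours, against 0.497, 0.902, 0.615 and 0.558 CPM in Trp53ΔIEC tumours (-3.01 ± 0.61, adjusted p = 0.0384). Both were scarce in either group and did not overlap between groups, the same picture as for C9. Like C9, Plg and Hc passed the filter on low counts through the Trp53ΔIEC tumours alone. The call of Plg was lost without Trp53ΔIEC replicate 2, 3 or 4 (adjusted p up to 0.0638), and that of Hc without any one of 7 of the 8 tumours (up to 0.107).

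Serpinb2, an inhibitor of urokinase, had 22.6, 2.02, 2.14 and 14.7 CPM in Trp53ΔIECAktE17K tumours, against 0.0383, 0.113, 0 and 0.605 CPM in Trp53ΔIEC tumours (5.75 ± 1.29, adjusted p = 0.0478). It had 950 reads in Trp53ΔIECAktE17K tumours and 17 in Trp53ΔIEC tumours. Serpinb2 passed the filter on low counts through the Trp53ΔIECAktE17K tumours, so it was tested only because it was higher there. Colec12, a collectin of cell membranes, had 61.6, 51.1, 28.1 and 40.3 CPM in Trp53ΔIECAktE17K tumours, against 19.8, 20.7, 24.9 and 21 CPM in Trp53ΔIEC tumours (1.07 ± 0.24, adjusted p = 0.0472). Each of these calls was lost without any one of 7 of the 8 tumours, with adjusted p up to 0.137 for Serpinb2 and 0.126 for Colec12. Next by p, and not called, came Susd4, a complement inhibitor (2.12 ± 0.50, adjusted p = 0.0565), A2m, a broad protease inhibitor (5.72 ± 1.37, 0.0576), and Serpinc1, which encodes antithrombin (-1.52 ± 0.37, 0.0615).

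Levels of C9, Plg and Hc were set beside the hepatocyte markers, since the liver is their main source. The 12 hepatocyte markers summed to 36.0 to 163 CPM in Trp53ΔIECAktE17K tumours and 78.5 to 142 CPM in Trp53ΔIEC tumours, and 1 of 10 tested was called, lower. Of the 10, 4 had a positive and 6 a negative fold change, with a median log2 fold change of -0.14. That gene, Hpx (haemopexin), had 1.19, 2.84, 1.30 and 1.12 CPM in Trp53ΔIECAktE17K tumours, against 12.4, 11.7, 12 and 12.5 CPM in Trp53ΔIEC tumours (-2.91 ± 0.36, adjusted p = 0.00942). Alb, the first marker of the list, had 5.46, 5.19, 0.672 and 9.41 CPM in Trp53ΔIECAktE17K tumours, against 25.1, 21.4, 34.7 and 21.7 CPM in Trp53ΔIEC tumours (-2.31 ± 0.63, adjusted p = 0.0866). Apoa1 spanned 0.168 to 3.03 and 0.230 to 2.63 CPM, and Apoa2 was at 0 in Trp53ΔIECAktE17K replicates 1 and 4 and at 0.186 to 0.880 CPM in Trp53ΔIEC tumours. The highest sum, in Trp53ΔIECAktE17K replicate 3, was mostly Fgb, with 126 CPM, and in other tumours Tat made up much of the sum (17.8 to 68.5 CPM in Trp53ΔIECAktE17K tumours, 13.5 to 75.8 CPM in Trp53ΔIEC tumours). Ahsg ran against Hpx, with 0.792 to 12.1 CPM in Trp53ΔIECAktE17K tumours and 1.65 to 2.59 CPM in Trp53ΔIEC tumours (log2 fold change 1.61 ± 0.68, adjusted p = 0.219). Hpx, Tat and Ahsg were picked after their values were seen. Hpx averaged 1.61 ± 0.823 CPM in Trp53ΔIECAktE17K tumours and 12.1 ± 0.384 CPM in Trp53ΔIEC tumours (SD, n = 4 each). Its SD was thus 51.1% of the mean in Trp53ΔIECAktE17K tumours and 3.16% in Trp53ΔIEC tumours, small in the latter only. The part of liver-type transcripts in the C9, Plg and Hc levels was not tested.

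**Figure D5:**
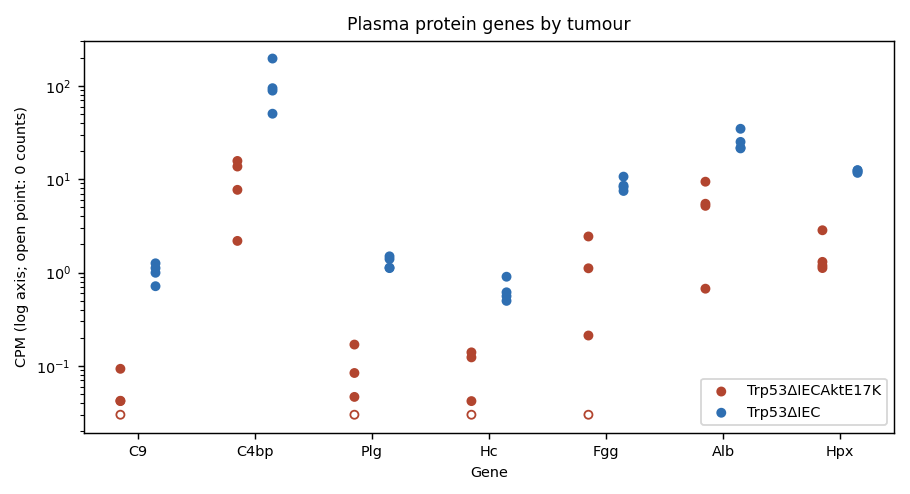
Levels of plasma protein genes in CPM on a log axis, 1 point per tumour, Trp53ΔIECAktE17K left of Trp53ΔIEC for each gene, with open points at 0 counts. The genes were picked after their values were seen; Fgg and Alb did not pass the test and the other 5 did, and the Trp53ΔIEC points lie close together for Hpx (11.7 to 12.5 CPM) and farther apart for C4bp (50.3 to 196 CPM).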

How the data were processed

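The authors deposited unnormalised read counts per Ensembl gene, 1 table a tumour. Per the submitters' processing notes, the build was mm10 and the tools were HTSeq 0.6, STAR 2.3.0, CASAVA 1.8.2, DESeq2 1.8.1 and SAMtools 1.2. Their roles, the annotation release and the strand setting were not given in the sources used here. Per the labels' protocols, RNA was extracted with RNeasy and libraries made with TruSeq mRNA v2, which selects polyadenylated RNA and records no strand, so overlapping genes cannot be separated by strand. Reads outside any gene (9.74% to 11.7%) and reads in several genes (1.93% to 2.32%), counted in the tables' closing lines, were set aside. Names and positions came from GENCODE M21 (36602 of 38355 identifiers, 95.4%). The listed C1rb and Klkb1 were not analysed here.

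Counts were tested in R 4.3.3 with edgeR 4.0.16 (filterByExpr, TMM, robust quasi-likelihood F-test, group as the only term, 4 tumours per group, Benjamini-Hochberg adjustment over 16539 genes, threshold 0.05); SE is the log2 fold change divided by the square root of F. Alternatives were DESeq2 1.42.0, voom of limma 3.58.1, 2 other scalings, no filter, the replicate number or title letter as a term, and leaving out tumours. Leaving out Trp53ΔIECAktE17K replicates 1 and 4, or Trp53ΔIECAktE17K replicate 3 and Trp53ΔIEC replicate 1, was added after seeing the data. The fit was tested on simulated data. No 2 libraries were duplicates. The labels name no batch.

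The members, the gene lists and these choices were made with earlier results of these data known. Every member is accounted for. Called members, those the filter left out and up to 4 per role with the smallest p get values per tumour, and the rest their range. Of the other pathway genes, those called and the 8 with the smallest p are named, except that some genes are not reported here. The first 3 genes of a marker list are given where the list is set beside a result. Any further gene is marked in the text as picked once its values were known.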

Additional observations from a re-analysis of the deposited data

Results flagged for a closer look

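In 85 groups of 4 tumours examined (each group for each gene), 5 had 1 tumour far from the other 3 by Dixon's test; chance gives about 1 in 20 such groups. Cfi, which encodes factor I, had 30.0 CPM in Trp53ΔIECAktE17K replicate 2, where the other 3 tumours had 1.39 to 5.88 CPM, and 40.1 CPM in Trp53ΔIEC replicate 1, where the others had 1.54 to 6.28 CPM. In Trp53ΔIEC replicate 1, F7 was also high, at 1.88 CPM beside 0.651 to 0.726 CPM, and so was Tfpi2, at 8.50 CPM beside 2.0 to 2.79 CPM. Thbd was low in Trp53ΔIEC replicate 2, at 71.4 CPM, where the other 3 tumours had 106 to 112 CPM. Of these 5, 3 come from Trp53ΔIEC replicate 1.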

How the results depend on the processing

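The 6 called members were also called with limma-voom, with the other scalings (RLE and upper quartile) and with no filter; DESeq2 called these and F7 and F10, 8 in all. Leaving out each tumour gave 2 to 6 called members, 0 to 5 other pathway genes (4 with all tumours) and 74 to 949 of all genes (694). Replicate numbers did not pair the tumours (correlations of same-numbered deviations -0.243 to 0.00928); with the replicate block 0 members, 0 other pathway genes and 50 of all genes were called. With the title letter as a term the counts were 1, 0 and 96. Other pathway genes numbered 12 with DESeq2 and 1 with no filter, and all genes 2489 with DESeq2. Without Trp53ΔIECAktE17K replicate 3 and Trp53ΔIEC replicate 1 together, other pathway genes numbered 1 and all genes 275; without Trp53ΔIECAktE17K replicates 1 and 4, 5 members were called, Serping1 being lost (adjusted p = 0.115), and the log2 fold changes of C9 and C4bp were -5.31 and -4.46. Log2 fold changes of single members kept their sign and their side of the threshold in 508 combinations of member and setting, lost the threshold in 31, gained it in 4 and reversed in 18, all of members not called. With the title letter C3ar1 reversed, to -0.034. All other reversals came from leaving out tumours. With each tumour, or Trp53ΔIECAktE17K replicate 3 together with Trp53ΔIEC replicate 1, left out, the log2 fold change ran from -0.46 to 0.026 for C1ra, -0.56 to 0.11 for C2, -2.18 to 1.44 for Cfi, -0.017 to 0.70 for F3, -0.20 to 0.82 for F5, -0.77 to 0.32 for Tfpi and -0.62 to 0.64 for Plau. Without Trp53ΔIECAktE17K replicates 1 and 4 it was -0.40 for Masp1, 0.20 for Cfi and 0.15 for Tfpi. Apart from the tumours left out, the cause was not tested. With RLE or upper-quartile scaling the median log2 fold change of all genes was -0.0025 and 0.05. Levels of C9, Plg and Hc rest on few reads, and absence below that depth cannot be read from a count of 0.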

Other observations

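In Trp53ΔIECAktE17K replicate 3 several liver plasma protein genes, chosen after their values were seen, stood above the other tumours. Fgb, the fibrinogen beta chain, had 0.296, 1.52, 126 and 0.0466 CPM in Trp53ΔIECAktE17K tumours, against 6.43, 6.69, 7.10 and 5.91 CPM in Trp53ΔIEC tumours (log2 fold change 2.29 ± 1.77, adjusted p = 0.502). The kininogen genes had the same single high tumour, with 23.8 CPM of Kng1 and 42.5 CPM of Kng2 in that replicate, while the other 7 tumours had at most 1.01 CPM of Kng1 and 2.92 CPM of Kng2. A2m had 6.94, 4.69, 30.4 and 0.326 CPM in Trp53ΔIECAktE17K tumours, against at most 0.497 CPM in Trp53ΔIEC tumours. It was thus highest in replicate 3 but, unlike Fgb and the kininogens, also raised in replicates 1 and 2. The other fibrinogen chains did not stand above the other tumours in replicate 3. Fga had 0.254, 1.69, 0.252 and 0 CPM in Trp53ΔIECAktE17K tumours, against 3.52, 2.90, 3.52 and 3.82 CPM in Trp53ΔIEC tumours (adjusted p = 0.160). Fgg had 0.212, 1.11, 2.44 and 0 CPM, against 8.23, 8.54, 7.49 and 10.7 CPM (adjusted p = 0.123).

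The C1q chains, which macrophages make and which were picked after their values were seen, did not pass the test, and their groups overlapped. C1qa spanned 60.1 to 190.3 CPM in Trp53ΔIECAktE17K tumours and 70.5 to 158 CPM in Trp53ΔIEC tumours, C1qb 43.9 to 130.4 and 66.2 to 143 CPM, and C1qc 37.7 to 121 and 57.3 to 116 CPM. Their log2 fold changes were 0.40 ± 0.41, 0.05 ± 0.40 and 0.14 ± 0.40, with adjusted p of 0.625, 0.957 and 0.881.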
